A study of Homo sapiens with 9 samples.

Results

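Open chromatin of the enzalutamide-resistant prostate cancer line VCaP16 was compared with that of solvent-treated VCaP cells, region by region. The members are genomic regions. Peaks from the 6 libraries of these groups were merged where they overlapped by at least 1 bp, and a merged region was kept if at least 2 of the 3 libraries of either group called a peak there. This gave 62979 regions of 88855 merged ones, and the same rule over all 9 libraries of the study gives 66108. VCaP_DMSO held 3 libraries of VCaP cells, a human prostate cancer line, given the solvent DMSO. VCaP16 held 3 libraries of an enzalutamide-resistant VCaP derivative grown in 16 µM enzalutamide. Both carry the genotype label WT. Every VCaP16 library came from cells in the drug, so resistance and exposure cannot be told apart. The labels do not say whether VCaP16 is 1 clone or whether its replicates came from different cultures. The p-values therefore rest on a spread between libraries that may be technical. Positions are on hg19. Regions are named by position and none is tied to a gene, because no annotation of that build was used here, and the labelled cell type could not be checked against marker genes.

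ATAC-seq uses the transposase Tn5 to insert sequencing adapters into DNA that nucleosomes leave free, so peaks of insertions mark promoters, enhancers and other regulatory elements in use. Prostate cancer cells depend on the androgen receptor, a transcription factor that binds such elements when it holds androgen. Enzalutamide competes with androgen for the receptor, and cells that grow in spite of it often make splice variants of the receptor that lack the part the drug binds. The study's title links wider chromatin opening to dependence on such variants.

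The lists differed more in length than in peak shape. VCaP16 libraries held 57894, 57315 and 68921 peaks and VCaP_DMSO libraries 57677, 54757 and 53799. VCaP16 replicate 3 thus stands apart with the longest list. The depth of sequencing is unknown, since the lists hold no read counts. The mean peak number was 61377 ± 6540 in VCaP16 and 55411 ± 2020 in VCaP_DMSO (SD, n = 3; two-sided exact permutation p = 0.2, or 0.6 when adjusted by Benjamini-Hochberg for the 3 list measures). The median peak width was 426 ± 20 bp and 430 ± 18.2 bp in the same order (SD, n = 3; exact permutation p = 0.8 before and after the adjustment). Peaks covered 31.3 ± 4.47 Mb and 28.6 ± 2.03 Mb (SD, n = 3; exact permutation p = 0.6, adjusted 0.8). None of these differences exceeded the spread of replicates, and 3 against 3 libraries cannot give a p below 0.1.

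Most open regions were shared by the resistant and the parental cells, and the remainder leaned towards VCaP16. Of the 62979 regions, 35824 (56.9%) were called in all 6 libraries. Regions called in more VCaP16 than VCaP_DMSO libraries numbered 15265 (24.2%), and 8659 (13.7%) leaned the other way. That balance moved with list length: with the same number of best-scoring peaks from every list it was 11241 against 10261. Without VCaP16 replicate 3 it turned to 9633 against 11204, by the share of each group's libraries. Without VCaP16 replicate 1 or 2 it was 12675 against 9002 and 12602 against 9111. Without VCaP_DMSO replicate 1, 2 or 3 it was 16813 against 6644, 15840 against 7391 and 15373 against 7661. Shares of 2 and of 3 libraries are not alike, so leaving out a library does not isolate list length. At the extremes, 1541 regions (2.45%) had a peak in every VCaP16 replicate but in none of VCaP_DMSO, and 504 (0.8%) had the reverse. With lists of equal length these counts were 1088 and 882. They were 2069 and 1227 without VCaP16 replicate 3, but there a VCaP16-exclusive region needs calls in 2 libraries and a VCaP_DMSO-exclusive one in 3, so these 2 counts are not alike. No single region was tested for its calls, since 3 against 3 calls cannot give a p below 0.1.

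**Figure D1:**
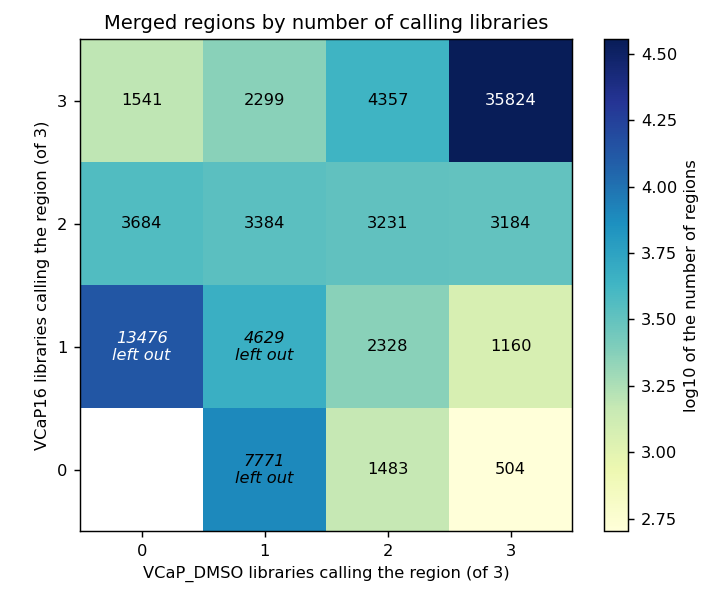
Number of merged regions by how many of the 3 VCaP16 libraries (vertical axis) and of the 3 VCaP_DMSO libraries (horizontal axis) called a peak; colour gives the log10 of the number, and squares marked left out fell short of 2 calls in either group. The square of regions called in all 6 libraries holds 35824, against 1541 in the upper left and 504 in the lower right corner.

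The rule's limit of 2 calls fell among weak regions. The score of a peak was read as a −log10 p or q. It moves with a library's depth, so tests used ranks within a library, and scores are given only as deposited values beside them. Just inside the limit, the 5167 regions called in 2 libraries of one group and none of the other had a median score of 5.82 and a median called length of 269 bp, where called length is the sequence under a library's peaks. Just outside it, the 25876 regions called in at most 1 library of each group had a median score of 4.45 and a median called length of 238 bp. Regions called in all 6 libraries reached a median score of 19.6 and 566 bp. The order of these 3 pooled sets was the same for score and for called length. It did not hold for every call pattern. The 1483 kept regions called in 2 VCaP_DMSO and 0 VCaP16 libraries had a median score of 5.41 and 254 bp. The 4629 left-out regions called in 1 library of each group had 5.43 and 260 bp.

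Exclusive regions of either group were mostly low and narrow. Ranked by score among the members called in a library, where 0% is the top, the VCaP16-exclusive regions had median positions of 77.7%, 78.3% and 75.2% in VCaP16 replicates 1, 2 and 3. The VCaP_DMSO-exclusive regions lay at 79.5%, 79.4% and 80.5% in the VCaP_DMSO replicates. Regions called in all 6 libraries lay between 31.9% and 37.3%. Both exclusive sets thus sat in the lower part of every list, at nearly the same depth. In the upper 50% of a VCaP16 list lay 160, 159 and 196 of the 1541 VCaP16-exclusive regions, and in the upper 50% of a VCaP_DMSO list 60, 53 and 46 of the 504. A median score of at least 20 was reached by 37 of the 1541 VCaP16-exclusive and 16 of the 504 VCaP_DMSO-exclusive regions. Among all 62979 members, 17923 reached it. The median called lengths of the 2 exclusive sets were 306 bp and 296 bp.

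**Figure D2:**
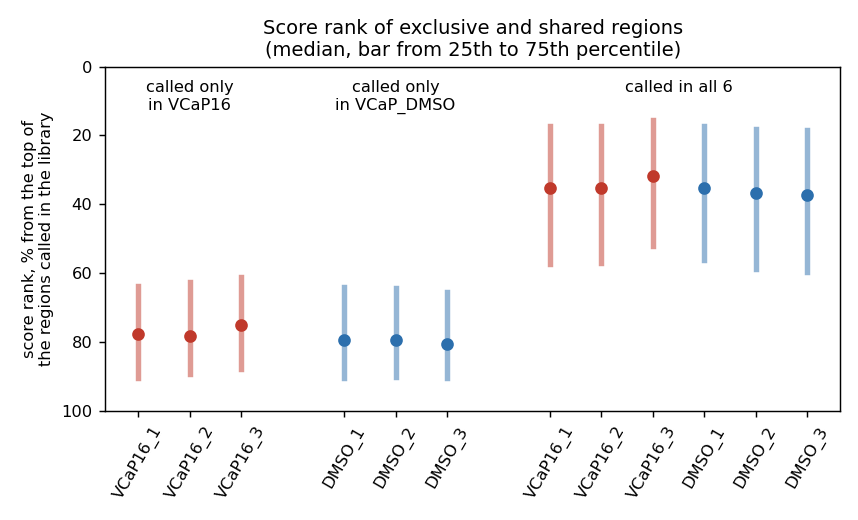
Score rank of exclusive and shared regions within each library, as the percent from the top of the members called there (vertical axis, top at 0); points are medians, bars run from the 25th to the 75th percentile, red is VCaP16 and blue VCaP_DMSO. Exclusive regions have medians between 75.2% and 80.5%, and regions called in all 6 libraries between 31.9% and 37.3%.

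A few exclusive regions were strong. The best-ranked VCaP16-exclusive region, chr22:24170860-24171399, had scores of 47.8, 41.3 and 40.7 in VCaP16 replicates 1, 2 and 3 and called lengths of 539, 417 and 426 bp. It lay 9.51 kb from the nearest region called in all 6 libraries. At chr17:219344-219741 the scores were 25.2, 34.2 and 41.0, and at chr20:39988098-39988724 they were 29.0, 40.8 and 36.1. Next came chr5:132975861-132976445, with a median position of 19.1%, and chr11:71075193-71075791, with 22.2%. No VCaP_DMSO list has a peak that overlaps any of these 5. On the VCaP_DMSO side, chr22:18879972-18880288 had scores of 46.4, 47.1 and 46.5 in replicates 1, 2 and 3, and its called lengths were 313, 299 and 317 bp. It lay 1.32 kb from a region called in all 6 libraries. The region chr15:80996993-80997617 had scores of 41.4, 46.8 and 47.0, and chr7:56441047-56441389 had 42.4, 39.9 and 28.4. The other 2 were chr12:57672160-57672831, 0.972 kb from a region called in all 6 libraries, and chr10:106128199-106128584.

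Width picked out other exclusive regions than score did. The widest VCaP16-exclusive region, chr12:6485230-6486109, had called lengths of 769, 865 and 819 bp in VCaP16 replicates 1, 2 and 3 at scores of 10.8, 16.6 and 30.4. It was the 1 region of the 5 widest with a median position above the middle of the list, at 40.2%. The region chr10:17157739-17158581 spanned 812, 227 and 843 bp at scores of 4.63, 6.17 and 13.7, so its width was not shared by replicate 2. The same replicate was narrow at chr2:176794685-176795545 and chr4:174130716-174131460, with 211 and 277 bp. These 2 regions had median positions of 62.4% and 76.0%, and chr3:193714974-193715945, with 419, 792 and 925 bp, had 72.0%. Among VCaP_DMSO-exclusive regions chr7:144421246-144422390 was widest, with 1030, 631 and 1050 bp in replicates 1, 2 and 3 at scores of 11.7, 10.5 and 7.1. It was followed by chr5:137805711-137806808 (median called length 886 bp), chr1:22323820-22324821 (848 bp), chr16:4422687-4423624 (726 bp) and chr12:11775841-11776614 (711 bp). In the last 3 of these, 1 replicate was narrow, with 253, 295 and 293 bp. Except for the widest VCaP16-exclusive one, all 10 had median positions in the lower 50% of the list, from 62.4% to 86.6%.

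Next to regions shared by all libraries, the resistant line's exclusive regions took a smaller share than those of the parental cells. Within 5 kb of a region called in all 6 libraries lay 148 of the 1541 VCaP16-exclusive regions (9.6%) and 94 of the 504 VCaP_DMSO-exclusive regions (18.7%), against 14.3% of all members. With lists of equal length the shares were 9.1% and 17.7%, and without VCaP16 replicate 3 they were 11.0% and 18.5%. Over all 11 settings in which the calls were recomputed, the share was lower for VCaP16-exclusive regions, at 6.76% to 11.9% against 11.9% to 20.5%. The same held for partial calls: the share within 5 kb was 11.2% for regions called in 2 VCaP16 and 0 VCaP_DMSO libraries and 18.6% for the reverse. These shares are a description over regions of the same 6 libraries and were not tested.

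Windows of 1 Mb held few exclusive regions each. The 1 Mb window with most VCaP16-exclusive regions was chr20:49000001-50000000, with 6 of its 42 members and no VCaP_DMSO-exclusive one. Next were chr3:50000001-51000000, with 5 of 49, and chr14:93000001-94000000, with 5 of 44. Windows with 5 or more numbered 4 in all. VCaP_DMSO-exclusive regions reached 3 in chr4:49000001-50000000, among 42 members, and in chr5:137000001-138000000, among 47. The third window, chr1:6000001-7000000, held 2, and 32 windows held at least 2. Of all members, 2.45% were VCaP16-exclusive and 0.8% VCaP_DMSO-exclusive. The windows named were picked for the highest counts over all chromosomes used, so a count above these shares is no sign of clustering by itself. Whether exclusive regions cluster was not tested.

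At the 35824 regions called in all 6 libraries, the question was whether a region stood higher or lower in the resistant line's lists. Each library's scores were ranked over this common set, which makes the lists equally long, and ranks were turned into normal scores, the values a normal distribution would give at those ranks. Libraries of one group ranked the regions more alike than libraries of different groups. Pearson's r of the normal scores across regions was 0.855 to 0.873 for the 3 VCaP16 pairs, 0.856 to 0.870 for the 3 VCaP_DMSO pairs and 0.804 to 0.841 for the 9 pairs between groups. The ranges within and between groups did not overlap. Regions are not independent, and r is given as a description.

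Rank shifts that passed the test were few and more often upward. By limma with Benjamini-Hochberg adjustment over all 35824 regions, 54 (0.151%) ranked higher in VCaP16 and 20 (0.0558%) lower at an adjusted p under 0.05. The 54 moved from a median position of 90.3% in VCaP_DMSO to 35.5% in VCaP16, with mean positions from 27.9% to 99.8% in VCaP_DMSO and from 0.656% to 94.7% in VCaP16. The 20 moved from a median of 41.0% (9.51% to 92.0%) to 94.1% (67.5% to 99.8%). Without an adjusted threshold, all 3 VCaP16 libraries ranked above all 3 VCaP_DMSO libraries at 3566 regions (9.95%) and below them at 3482 (9.72%), which is a nearly even balance. At an unadjusted p under 0.05 limma counted 2654 (7.41%) higher and 2337 (6.52%) lower. The calls need all 6 libraries: with any 1 left out, limma called at most 1 region. The lowest adjusted p over the table was then 0.0176 to 0.126, and all 54 and all 20 kept their direction with an unadjusted p under 0.05. They were picked for a small p in the same 6 libraries, and their groups did not overlap. Keeping the direction is therefore no independent support. The counts of limma also moved with the filter and the scale. With peaks under a score of 5 left out, limma called 18 higher and 3 lower. Only 39 of the 54 and 10 of the 20 were then still called in all 6 libraries. When peaks had to cover 50% of a region, 20 of the 54 and 6 of the 20 remained, and all of these passed. With log2 scores in place of ranks limma called 175 higher and 73 lower. With lists of equal length it called 12 lower, and 48 of the 54 higher regions still passed.

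The largest rise was at chr9:68425969-68426941. This region scored 84.2, 93.9 and 122 in VCaP16 replicates 1, 2 and 3 and 13.6, 4.65 and 6.50 in the VCaP_DMSO replicates. It stood at 1.86%, 1.47% and 1.67% from the top in VCaP16 and at 75.1%, 97.4% and 92.2% in VCaP_DMSO. The groups were far apart, and the difference in normal scores was 3.47 ± 0.30 (SE; limma adjusted p = 0.0165). The region lies 2.81 Mb from the longest stretch of chromosome 9 without a peak in any of the 6 lists, chr9:47212644-65613805. Whether its sequence is repeated in the genome was not tested.

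The other large rises began in the lower part of the VCaP_DMSO lists. At chr3:73853252-73853967 scores were 44.5, 36.7 and 47.1 in VCaP16 and 5.82, 7.41 and 5.36 in VCaP_DMSO (difference 2.63 ± 0.23, limma adjusted p = 0.0165). At chr1:160101697-160102267 they were 53.3, 60.5 and 86.0 against 11.8, 9.63 and 9.69, and the positions were 7.1%, 5.8% and 5.18% against 81.1%, 81.0% and 80.2%. The replicates of each group nearly coincided at this last region, which had the smallest adjusted p of all (difference 2.43 ± 0.17, limma adjusted p = 0.0140). At chr4:74240968-74241618 scores of 61.3, 64.1 and 82.9 stood against 15.1, 17.7 and 9.09. VCaP16 positions there lay between 4.97% and 5.73%, and VCaP_DMSO positions between 52.7% and 82.2%. At chr8:135879038-135879763 scores of 32.3, 32.1 and 40.8 stood against 7.31, 5.24 and 6.25. The remaining 5 of the 10 largest rises were chr17:34043865-34044773, chr6:170430533-170431242, chr19:11152624-11153196, chr12:107742578-107743191 and chr2:218537244-218537556, with differences of 2.62, 2.48, 2.18, 2.12 and 2.06. In none of the 10 did the groups overlap, nor at any other of the 54 risen regions, which were picked by these same values.

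One further region is named after its values were seen, because it ranked highest in VCaP16 of all 54. The region chrX:66324778-66325896 had scores of 102, 127 and 167 in VCaP16 replicates 1, 2 and 3 and of 45.3, 30.2 and 22.9 in the VCaP_DMSO replicates. It was already a strong peak in the parental cells, at 18.5%, 27.4% and 37.8% from the top, and reached 0.888%, 0.525% and 0.555% in VCaP16 (difference 1.89 ± 0.21, limma adjusted p = 0.0334).

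The falls mirrored this pattern. The largest, at chr1:217075995-217076573, went from scores of 65.2, 47.0 and 38.2 in VCaP_DMSO replicates 1, 2 and 3 to 4.72, 5.20 and 16.4 in VCaP16, a difference of -2.61 ± 0.35 (limma adjusted p = 0.0440). Its VCaP16 replicate 3 value was higher than those of the other two. At chr3:14270183-14270846 scores of 21.0, 22.5 and 15 in VCaP_DMSO stood against 2.87, 3.54 and 4.89 in VCaP16, where the region was among the last of the list at 99.8%, 99.4% and 99.1% (difference -2.57 ± 0.23, limma adjusted p = 0.0165). At chr21:28526951-28528004 scores of 40.2, 34.1 and 37.0 stood against 3.78, 9.79 and 7.57. At chr6:43894584-43895306, the highest of the 10 in VCaP_DMSO, scores of 55.7, 52.8 and 66.2 stood against 9.49, 16.4 and 19.7. The others were chr6:167624426-167624864, chr20:50309505-50310025, chr20:12998377-12999155, chr6:5068271-5068812, chr18:13826301-13826896 and chr13:112225187-112226267, with differences from -2.19 to -1.72. The groups did not overlap at any of the 10, nor at any other of the 20 fallen regions, which were picked by these same values. Chromosome 6, with 5.0% of all regions tested, held 5 of the 20 regions that fell and 3 of the 54 that rose. It is named after the counts by chromosome were seen, and its share was not tested.

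**Figure D3:**
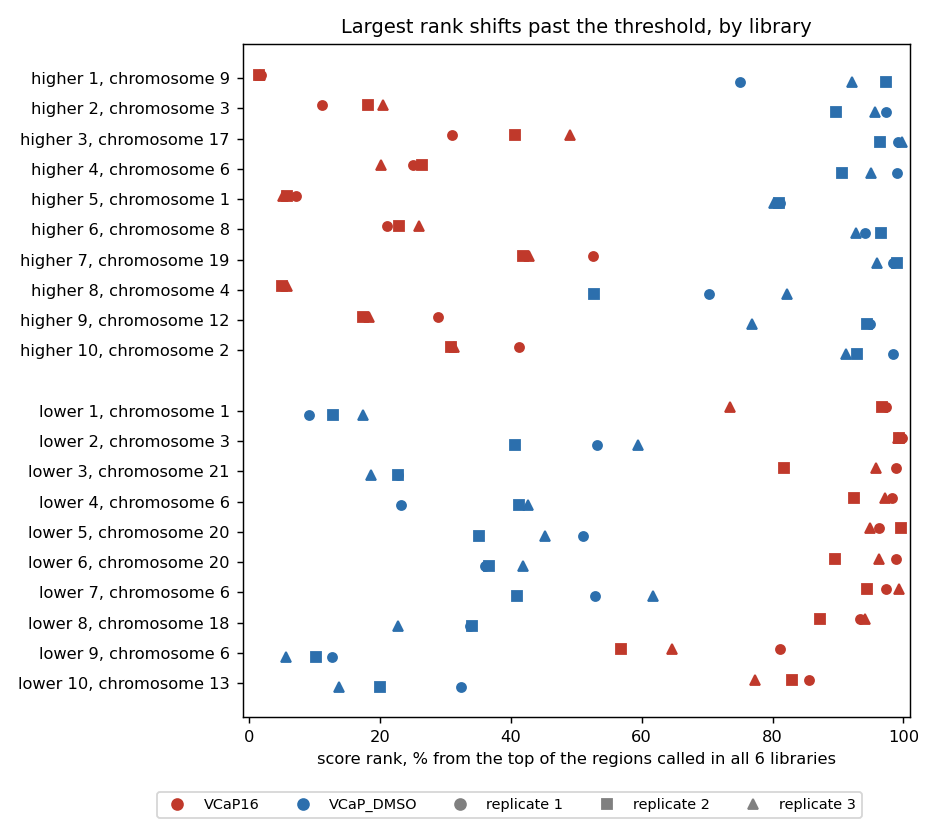
Score rank of the 10 largest rises and 10 largest falls past the threshold, by library: the horizontal axis is the percent from the top of the 35824 regions called in all 6 libraries (smaller is stronger), colours are groups and marker shapes replicates. VCaP16 and VCaP_DMSO points are separate in every line, as at the first region, with 1.47% to 1.86% against 75.1% to 97.4%.

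Regions near the shifted ones did not move with them as a set. The 54 regions that rose were spread over 21 chromosomes and the 20 that fell over 13. Within 50 kb of the risen regions lay 92 other regions called in all 6 libraries, of which 45 (48.9%) had a higher mean normal score in VCaP16, against 48.3% of all regions tested. Around the fallen regions it was 38, of which 13 (34.2%) had a lower one, against 51.7% of all, so most of these lay higher in VCaP16. Around the fallen region chr21:28526951-28528004, all 6 other such regions within 200 kb were higher in VCaP16 by this measure, with a median difference of 0.39. At chr20:12998377-12999155 all 4 were lower, like the region itself. Of the 166 members within 50 kb of the 54, 3 (1.81%) were VCaP16-exclusive and 1 (0.602%) VCaP_DMSO-exclusive. Of the 62 within 50 kb of the 20, 3 (4.84%) were VCaP16-exclusive and 0 VCaP_DMSO-exclusive. On chromosome 13, opposite shifts lay 52.2 kb apart. There chr13:112225187-112226267 fell from scores of 31.8, 36.8 and 43.6 in VCaP_DMSO to 8.43, 9.48 and 15.1 in VCaP16, and chr13:112278502-112279441 rose from 16.7, 18.8 and 14.5 to 38.1, 49.0 and 65.7 (difference 1.41 ± 0.20, limma adjusted p = 0.0465). This pair is also named after its values were seen.

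Regions that rose in rank also ranked higher in width. Among the 54 regions that rose, 51 had a higher width rank in VCaP16, with a median called length of 558 bp against 350 bp in VCaP_DMSO. Among the 20 that fell, 19 had a lower width rank, with 384 bp against 566 bp. Over all regions called in all 6 libraries the medians were 583 bp and 567 bp. Score and width come from the same peaks, and the 2 shifts correlated across the 35824 regions with r = 0.406, so the widths do not support the rank shifts independently.

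**Figure D4:**
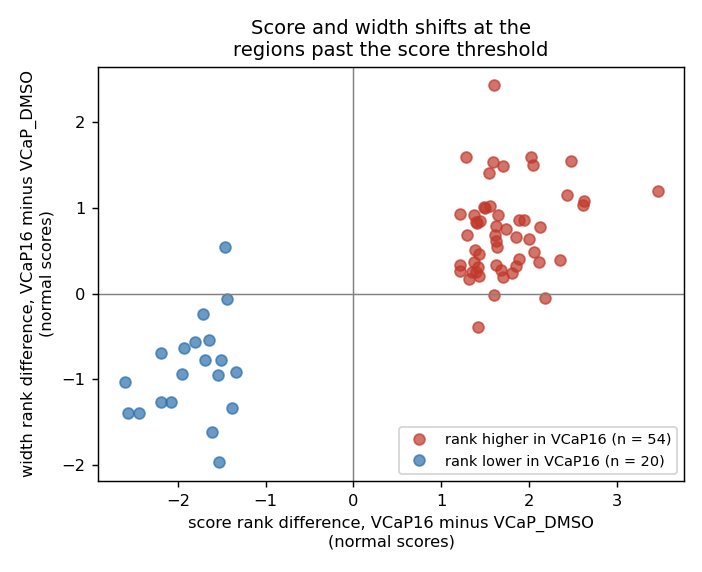
Score rank difference (horizontal axis) and width rank difference (vertical axis), both VCaP16 minus VCaP_DMSO in normal scores, for the 74 regions past the score threshold. All but 3 of the 54 red points (rank higher) lie above 0 in width and all but 1 of the 20 blue points (rank lower) below it.

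Tested by itself, no width shift passed. Limma called 0 regions wider and 0 narrower in VCaP16 at an adjusted p under 0.05, with a lowest adjusted p of 0.204, while 1451 (4.05%) and 1278 (3.57%) had an unadjusted p under 0.05. Width ranks did not overlap between groups, with VCaP16 higher, at 2237 regions (6.24%), and with VCaP16 lower at 2278 (6.36%). The following are therefore descriptions of the largest such differences. At chr12:20573640-20574838 called lengths were 693, 883 and 971 bp in VCaP16 replicates 1, 2 and 3 and 604, 161 and 169 bp in the VCaP_DMSO replicates, so replicate 1 of VCaP_DMSO was close to VCaP16. At chr3:168707193-168708443 they were 1101, 1010 and 1110 bp against 490, 257 and 306 bp. The scores at this region did not move with the width, at 27.2, 18.6 and 27.5 in VCaP16 against 33.2, 27.7 and 20.5. A like case was chr7:147781070-147781890, with 821, 612 and 757 bp against 248, 229 and 184 bp and a score rank difference of -0.02. In the other direction, chr10:98955736-98957165 had 267, 222 and 221 bp in VCaP16 against 1430, 840 and 487 bp in VCaP_DMSO, and chr3:115538643-115539247 had 211, 185 and 205 bp against 534, 478 and 590 bp at a score rank difference of -0.12. At chr7:27228470-27230262 they were 341, 522 and 758 bp against 1033, 1659 and 1604 bp. The other wider regions were chr18:48617726-48618948, chr4:141649017-141649719, chr8:140367102-140367927, chr22:29813313-29814330, chr4:57377287-57377837, chr1:214689372-214690397 and chr1:222520655-222521414. Their width rank differences ran from 2.03 to 2.27. The other narrower ones were chr2:230578227-230580174, chr10:88852254-88854724, chr10:15209489-15210701, chr1:65060972-65062214, chr18:46523450-46524716, chr4:182878087-182878712 and chr19:42925431-42926323. Theirs ran from -2.43 to -1.97. At chr10:88852254-88854724 called lengths were 628, 230 and 1567 bp in VCaP16 against 1625, 2148 and 1508 bp in VCaP_DMSO. The lengths there overlapped, and only the ranks within a library kept the groups apart. Score ranks moved with the width at others of the regions named here. The score rank difference was 1.60 at chr12:20573640-20574838, -1.62 at chr10:98955736-98957165 and -1.53 at chr19:42925431-42926323. The chromosome 12 and chromosome 19 regions also passed the threshold for a score rank shift (limma adjusted p = 0.0468 and 0.0440). The chromosome 19 region was weak in all 6 libraries. Its scores were 2.64, 2.8 and 4.06 in VCaP16 and 8.42, 7.28 and 5.77 in VCaP_DMSO, at mean positions of 99.8% and 92.0%.

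Averages over long stretches passed the test in some places. The normal scores of regions called in all 6 libraries were averaged over 5 Mb bins with at least 10 such regions. Of 563 bins, limma called 12 (2.13%) higher and 11 (1.95%) lower in VCaP16 at an adjusted p under 0.05. The bins whose groups did not overlap numbered 86 (15.3%) and 80 (14.2%), and those with an unadjusted p under 0.05 numbered 77 (13.7%) and 60 (10.7%). The calls depend on single libraries. Without VCaP_DMSO replicate 3 limma called 0 and 0 bins, without VCaP16 replicate 1 it called 0 and 5, without VCaP16 replicate 3 it called 0 and 2, and without VCaP16 replicate 2 it called 2 and 2. Without VCaP_DMSO replicate 2 it called 5 and 4, without VCaP_DMSO replicate 1 it called 16 and 7, and with lists of equal length 3 and 2. All 12 and all 11 kept their direction in each of these fits. They were picked from the same libraries with groups that did not overlap, so their direction could hardly turn.

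Among the higher bins, 2 were neighbours on chromosome 8. In chr8:105000001-110000000, which holds 52 such regions, the mean normal score was 0.18, 0.08 and 0.14 in VCaP16 replicates 1, 2 and 3 and -0.14, -0.13 and 0.01 in the VCaP_DMSO replicates. There 37 regions were higher in VCaP16 and 15 lower (difference 0.22 ± 0.05, limma adjusted p = 0.0440). In chr8:110000001-115000000, with 25 regions, the means were 0.32, 0.28 and 0.38 against 0.17, 0.10 and 0.16 (difference 0.18 ± 0.04, limma adjusted p = 0.0440). The first of these bins held 5 VCaP16-exclusive regions among its 115 members and the second 2 among 57, against 2.45% of all members. Neither held a VCaP_DMSO-exclusive region, which made up 0.8% of all members. Whether these counts differ from those shares was not tested. In chr6:20000001-25000000 the means were 0.09, 0.05 and 0.01 against -0.13, -0.23 and -0.17, with 45 of 63 regions higher (difference 0.23 ± 0.04, limma adjusted p = 0.0169). The largest difference of the 12, 0.25 ± 0.05, was in chr12:80000001-85000000 (limma adjusted p = 0.0169). Only 13 of its 22 regions were higher, the median position was 52.3% in VCaP16 and 49.8% in VCaP_DMSO, which is lower in VCaP16, and the mean difference turned to -0.07 when peaks had to cover 50% of a region. Further bins with more than 100 regions were chr9:110000001-115000000, with 74 of 111 regions higher, chr13:110000001-115000000, with 81 of 124, and chr21:35000001-40000000, with 91 of 141. The other higher bins were chr11:95000001-100000000, chrX:10000001-15000000, chr12:65000001-70000000, chr3:15000001-20000000, with 30 of 52 regions higher, and chr6:125000001-130000000, with 21 of 36.

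Among the lower bins, chr10:40000001-45000000 held 53 regions with mean normal scores of 0.30, 0.21 and 0.24 in VCaP16 replicates 1, 2 and 3 and 0.45, 0.49 and 0.58 in the VCaP_DMSO replicates. Of these regions 39 were lower in VCaP16 and 14 higher (difference -0.25 ± 0.04, limma adjusted p = 0.0169). In chr5:125000001-130000000, 35 of 45 regions were lower (-0.28, -0.15 and -0.13 against 0.06, 0.05 and 0.10; difference -0.25 ± 0.05, limma adjusted p = 0.0169). The lowest value, -0.36 ± 0.07, was in chr13:80000001-85000000, which rests on 11 regions (limma adjusted p = 0.0169). In chr6:35000001-40000000, 70 of 97 regions were lower, and in chr10:100000001-105000000 it was 77 of 119. The bins chr2:90000001-95000000 and chr10:40000001-45000000 touch the longest peak-free stretches of their chromosomes. The remaining lower bins were chr14:85000001-90000000, chr1:240000001-245000000, chrX:100000001-105000000, chr16:25000001-30000000 and chr15:30000001-35000000. In every bin named here the 2 groups did not overlap, and the bins were picked by these same values. Of the 74 regions past the single-region threshold, 3 risen and 1 fallen lay in the higher bins, which hold 2.12% of the regions tested, and 0 in the lower bins, which hold 1.54%. Whether copy number differs between the lines in these stretches was not tested.

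**Figure D5:**
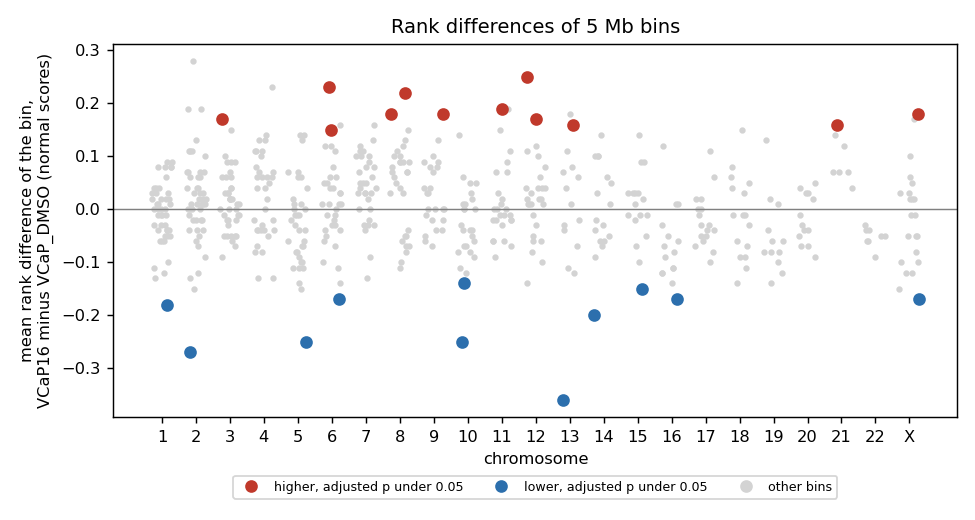
Mean rank difference, VCaP16 minus VCaP_DMSO in normal scores, of 563 bins of 5 Mb (points) by chromosome (horizontal axis, points spread sideways at random within a chromosome). Coloured points are the 12 higher and 11 lower bins past the threshold, between 0.15 and 0.25 and between -0.36 and -0.14.

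Differences over whole chromosomes were smaller. The mean normal score was higher in every VCaP16 than in every VCaP_DMSO library on 5 of 23 chromosomes (21.7%), which were 4, 7, 8, 9 and 21, and lower on 5 (21.7%), which were 1, 5, 10, 16 and 19. Chromosome 21 had the largest positive difference of the 23, with means of 0.22, 0.25 and 0.21 in VCaP16 replicates 1, 2 and 3 against 0.13, 0.15 and 0.14, and 57.5% of its 664 regions were higher. Chromosome 16 had the largest negative one, with -0.28, -0.26 and -0.30 against -0.21, -0.19 and -0.20, and 39.6% of its 913 regions were higher. On chromosome 19 the means were 0.15, 0.16 and 0.11 against 0.19, 0.22 and 0.20. These differences are small beside those of single regions, and chromosomes were not tested. Across the 563 bins, the shift at shared regions and the share of VCaP16-exclusive minus VCaP_DMSO-exclusive members correlated weakly, with r = 0.147. Both come from the same 6 libraries.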

How the data were processed

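ATAC-seq peak lists of 3 VCaP16 and 3 VCaP_DMSO libraries were used; the VCaP_ENZ lists entered only the count of regions of the whole study. Per the labels' protocols, cells were crosslinked with 1% formaldehyde for 10 minutes before tagmentation. The same text describes a single-cell preparation without saying which libraries it concerns, and the lists were treated as bulk. Tools listed in the submitters' processing notes, with neither role nor setting, are MACS2 2.2.7.1, HOMER 3.12 and BWA 0.7.15-r1140, and the build is hg19. Filters and any Tn5 shift are not given in the sources used here. There is 1 deposited list per library, so replicates were not pooled. The score column, deposited without a header, was read as the authors' −log10 p or q because no list goes below 2, and such scores move with depth, which is unknown.

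Peaks on chromosomes 1 to 22 and X were merged at 1 bp overlap. Calls, the highest score and the called length were taken per region and library. Ranks over regions called in all 6 libraries were turned into normal scores and tested with limma 3.58.1 (R 4.3.3), unpaired, with Benjamini-Hochberg adjustment and a threshold of 0.05; the step was tested on simulated data. List measures had two-sided exact permutation tests (scipy 1.17.1). Named regions are, per direction, the 5 best-ranked and 5 widest exclusive regions, the 10 largest rank and width shifts past the threshold or, where too few passed, with groups that did not overlap, the 10 bins with the largest differences past the threshold, and the 3 fullest windows of 1 Mb. The 2 higher bins and 1 lower bin beyond 10 are named as well. The members and lists were chosen with earlier results of these data known. The distances to shared regions by setting, the pairs within 500 kb and the peak-free stretches were added after seeing the data. Replicate numbers were checked for pairing and did not pair the libraries. Alternatives were a minimum score of 5, equal list length, 50% overlap, 250 bp midpoint windows, the log2 scale, the mean score, bins of at least 20 regions, a replicate block and leaving out each library.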

Additional observations from a re-analysis of the deposited data

How the results depend on the processing

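Depth is unknown, so a region called in one group alone may lie just under the limit in the other, and list length moves the counts. The correlations of same-numbered libraries' deviations from their group means were -0.00179, -0.000851 and -0.00506, and no library correlated best with its own number, so the numbers were not taken as pairs. Under the replicate block limma called 0 regions higher and 0 lower, against 54 and 20, and 28 bins higher and 20 lower, against 12 and 11. For each change listed the cause was not tested, unless it is named.

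With a minimum score of 5, 18 regions ranked higher and 3 lower, and with the log2 scale 175 and 73. With equal list length 12 regions ranked lower, 3 bins higher and 2 lower, 882 regions were called only in VCaP_DMSO, and the median width difference of -3.33 bp turned to 25.0 bp. With bins of at least 20 regions 26 and 18 bins passed. Lower bins numbered 6 with the 50% overlap, 25 with the log2 scale and 5 with the mean score. The bin on chromosome 12 from 80000001 to 85000000 turned from 0.25 to -0.07 with the 50% overlap.

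With 1 library left out, regions ranked higher numbered 0 to 1 and lower 0 to 0, bins higher 0 to 16 and lower 0 to 7, regions called only in VCaP16 2069 to 3137 and only in VCaP_DMSO 727 to 1227. The difference in median peak width ran from -13.2 to 6.83 bp, and turned without VCaP_DMSO replicate 1 and without VCaP16 replicate 1. Width counts stayed at 0 in every setting run. The 20 named rank shifts and 20 named width shifts kept their direction in every setting that still held the region. All were picked from the same 6 libraries and had groups that did not overlap, so their direction could hardly turn.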

Other observations

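Regions beside each chromosome's longest peak-free stretch were on average lower in VCaP16, though not on every chromosome. This was looked at after the bins on chromosomes 2 and 10 had been seen, and no test was made. Within 2 Mb of the longest stretch of a chromosome without a peak in any of the 6 lists lay 896 regions called in all 6 libraries. Their mean normal scores were 0.17, 0.16 and 0.16 in VCaP16 replicates 1, 2 and 3 and 0.23, 0.23 and 0.23 in the VCaP_DMSO replicates. Of these regions 525 (58.6%) were lower in VCaP16, against 51.5% of the 34928 farther away. Every VCaP16 library lay below every VCaP_DMSO library on chromosomes 1, 4, 9, 10, 11, 16, 17 and X, and above on chromosome 6. Over whole chromosomes the groups were apart on 5 of 23 (21.7%) in each direction. Of those listed, chromosomes 1, 10 and 16 were also lower as a whole, and chromosomes 4 and 9 were higher as a whole. Chromosome 20, which has most such regions, went the other way, with 47 of 103 lower (mean difference 0.08). The stretches differ in length, and those of chromosomes 15 and 22 are 0.834 and 0.523 Mb long. On chromosome 10, 50 of 64 such regions were lower (mean difference -0.25), and on chromosome 11 it was 9 of 10 (-0.46). The risen region chr9:68425969-68426941 lies outside the 2 Mb limit, and the 5 other shared regions within 200 kb of it were lower in 4 cases.

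The window chr4:49000001-50000000, one of the fullest in VCaP_DMSO-exclusive regions, touches such a stretch, chr4:49659991-52697432. Its 15 regions called in all 6 libraries had a mean difference of -0.59. In the other leading windows the mean difference ran from -0.12 to 0.04.

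Rank shifts of successive regions called in all 6 libraries correlated little at any distance. Pearson's r was -0.051 over 596 pairs less than 1 kb apart and -0.104 over 2073 pairs from 1 to 5 kb. It was 0.0468 over 9546 pairs from 5 to 20 kb and 0.0181 over 16666 pairs from 20 to 100 kb. All pairs share the same 6 libraries, and r is given as a description.

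Risen regions lay within 500 kb of each other in 2 cases, at chr1:108168719-108169619 and chr1:108588023-108588778 (418 kb apart) and at chr21:47266561-47266953 and chr21:47504504-47505212 (238 kb apart).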
